A study of Mus musculus with 10 samples.

Results

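The Dusp1 and Zfp36 loci were described as the places where the transcription factor RelA and the glucocorticoid receptor (GR) were found around a pair of anti-inflammatory genes. A locus is here a fixed window on the mouse genome build mm9. The Dusp1 window ran from 26600000 to 26720000 on chromosome 17 and the Zfp36 window from 29120000 to 29210000 on chromosome 7. Every region that the authors listed in either window was taken, which gave 35 of the 114312 regions of the 9 chromatin immunoprecipitation lists. Of these, 21 lay in the Dusp1 window and 14 in the Zfp36 window. The windows were chosen by gene with results of these data known, and that of Dusp1 on a measured value as well, since it holds the GR region of highest tag density in cells given lipopolysaccharide and dexamethasone. The rank of that region is therefore a description.

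The cells were macrophages grown from bone marrow of the mouse strain C57BL/6J, and proteins bound to their DNA were mapped by chromatin immunoprecipitation and sequencing (ChIP-seq). RelA was mapped in 7 libraries: after 0, 3 and 8 h of lipopolysaccharide (LPS, a bacterial cell wall component), after the same times with the synthetic glucocorticoid dexamethasone (Dex) given 3 h before, and at 8 h of LPS when Dex was added late, at an hour that the labels do not state. The names of the deposited lists give times that differ from the label for the 0 h library and that add to it for the late Dex library. Groups here follow the labels, and the values of these libraries rest on them. GR was mapped in 2 libraries, 1 with Dex and 1 with LPS and Dex, without stated times and with a second cross-linker. A further library held input DNA of untreated cells, labelled as the control for RelA. Each condition had 1 library, so no difference between conditions has a replicate check and no test between conditions was made. Age and sex of the animals are not given in the labels, and region lists carry no expression values by which the cell type could be checked.

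RelA is the p65 subunit of NF-κB, which moves to the nucleus after LPS and binds near many inflammatory genes. GR is a nuclear receptor that binds DNA once a glucocorticoid has bound to it, either directly or through other bound factors. Dusp1 encodes a phosphatase that inactivates the MAP kinases p38 and JNK. Zfp36 encodes tristetraprolin, an RNA-binding protein that hastens the decay of cytokine messenger RNAs such as that of Tnf. Both genes are known to be induced by inflammatory stimuli as well as by glucocorticoids, and both limit the inflammatory response of macrophages. In the order of genes along the chromosome, Luc7l and Neurl1b precede Dusp1 and Ergic1 and Atp6v0e follow it. Rps16 and Plekhg2 precede Zfp36, and Med29 and Paf1 follow it. No region was assigned to any of these genes, since the gene table was on another build (GRCm38.p6) than the lists.

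The promoters are shown as the start points of both genes and because they differ in the motifs they hold. They are the 250 bases before each gene's start site from RefSeq, build GRCm38.p6, minus strand, at chr17:26508473-26508722 for Dusp1 and chr7:28379229-28379478 for Zfp36. Capitals mark matches to a cyclic AMP response element (TGACGTCA) or its short form (TGACG).
Dusp1: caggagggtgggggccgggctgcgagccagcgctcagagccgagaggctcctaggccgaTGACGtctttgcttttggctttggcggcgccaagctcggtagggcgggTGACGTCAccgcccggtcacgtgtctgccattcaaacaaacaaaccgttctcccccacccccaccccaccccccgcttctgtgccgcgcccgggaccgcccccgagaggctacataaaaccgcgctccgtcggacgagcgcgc
Zfp36: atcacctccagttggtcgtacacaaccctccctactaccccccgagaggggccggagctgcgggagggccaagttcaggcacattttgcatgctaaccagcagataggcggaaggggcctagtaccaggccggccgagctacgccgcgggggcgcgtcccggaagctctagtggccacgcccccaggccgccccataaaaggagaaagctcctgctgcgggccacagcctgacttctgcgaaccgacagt

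The Dusp1 promoter held 1 full element, from 143 to 136 bases before the start site, and a separate short form from 191 to 187 bases before it. Of 32851 promoters of this length, 1.55% held the full element and 17.8% the short form. The Zfp36 promoter held neither. Both strands were also searched for an NF-κB motif (GGNNNTTCC, in 15.7% of the promoters), a GR palindrome (ACANNNTGT, 5.84%), its short form (AGAACA, 16.1%) and an AP-1 motif (TGACTCA, 4.46%). These letters were found in neither window of 250 bases. A match is not a bound site. Whether a RelA or GR region covers either promoter was not determined, since the builds differ, and the sequences under the regions themselves are not shown for the same reason.

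Regions that overlapped by at least 1 bp were joined across lists into sites, 11 in the Dusp1 window and 7 in the Zfp36 window. None of the 35 regions overlapped an input region, and the input list held no region in either window. Highest tag density, called tag density below, is the authors' value at the top of a region. How it was scaled between libraries is not stated. The lowest of the 35 was 14.3 and the highest 746, against list medians of 2.99 for GR with Dex, 4.01 for GR with LPS and Dex, and 14.2 to 25.5 for the RelA lists. The deposited p-value was printed as 0 for 10 of the 35.

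The makeup of the loci differed. The Dusp1 window held mainly GR: 7 sites had GR alone, 3 had GR and RelA, and 1 had RelA alone. The Zfp36 window held RelA at every site: 3 of its 7 sites had GR as well, 4 had RelA alone and none had GR alone. The lists differ in length, with 51639 GR regions of LPS and Dex against 5017 RelA regions of 3 h. Of these GR regions with a tag density of at least 10, outside input, 18.7% met a RelA region of 3 h. Of the RelA regions of 3 h outside input, 62% met a GR region of LPS and Dex. GR without RelA was thus the usual state over all regions, and the counts of sites are a description. The sites of Zfp36 spanned 13604 bp. Those of Dusp1 spanned 74699 bp and fell into a group of 4 sites over 9358 bp, a group of 5 sites over 6844 bp that lay 12972 bp farther on, and 1 lone site to each side. The window edges cut no cluster at the start: the nearest listed region of any condition before the Zfp36 window was 73.2 kb away, and that before the Dusp1 window 295 kb away.

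**Figure D1:**
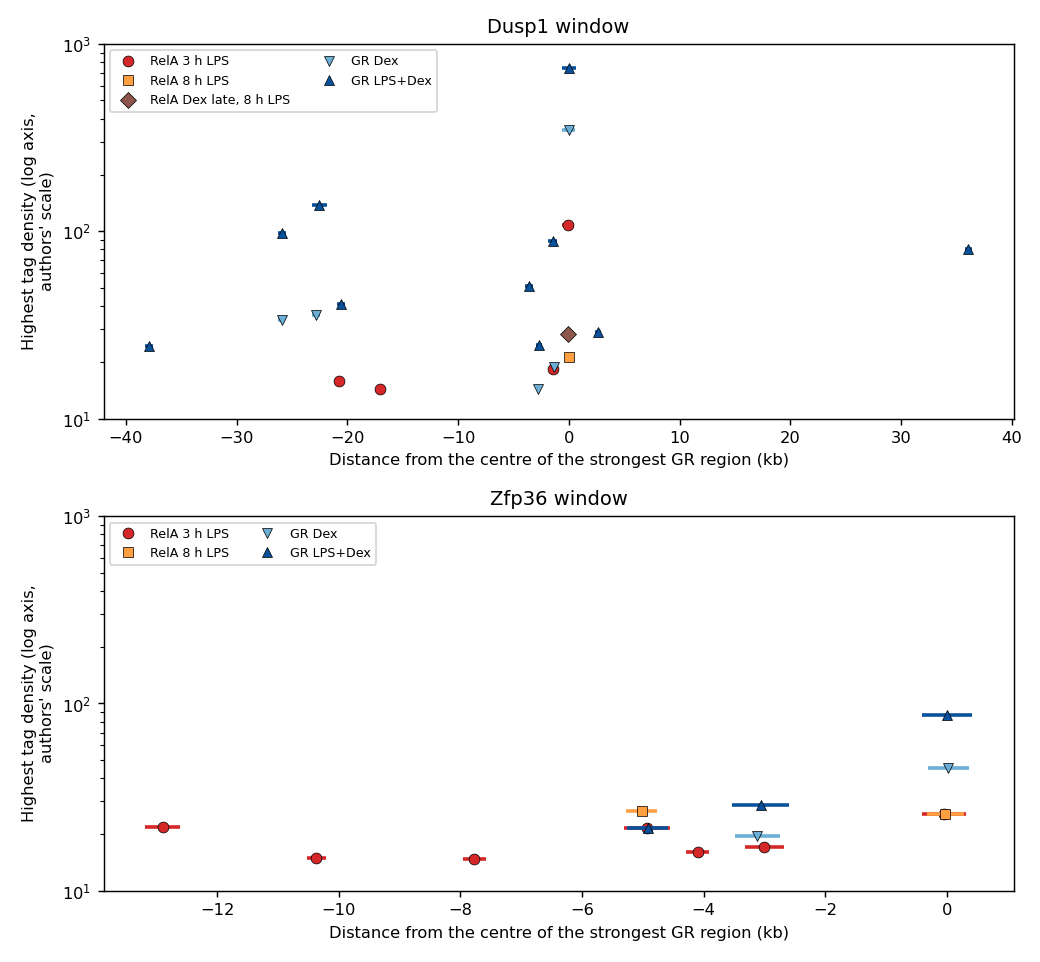
Highest tag density (log axis, the authors' scale) of every region in the 2 windows against distance in kb from the centre of the strongest GR region. Bars give the width of a region and symbols its list. In the Dusp1 window the GR regions of LPS and Dex range from 24.3 to 746. In the Zfp36 window all regions lie below 90 and the RelA regions of 3 and 8 h at distance 0 coincide.

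RelA was called in the Dusp1 window in 3 of 7 libraries, and the strongest site was the only site called in all of these. At that site (chromosome 17, 26671788 to 26673046) the tag density of RelA was 108 after 3 h of LPS, 21.2 after 8 h and 28.2 after 8 h with late Dex. It was not called at 0 h or in any of the 3 libraries pretreated with Dex. The 3 h region, 26671788 to 26672874, ranked 13 of 5017 by tag density and 17 by the authors' score of 79.5. The 8 h region, 26672161 to 26672662, ranked only 1303 of 1890. RelA at the strongest Dusp1 site thus stood among the highest of the whole list at 3 h and below the median of 25.5 of the list at 8 h.

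The other RelA regions of the window were weak and were listed at 3 h alone. They had a tag density of 15.9 at 26651583 to 26651834, 14.4 at 26655212 to 26655536 and 18.4 at 26670773 to 26671220, all under the 3 h list's median of 18.5. Their scores were 9.20, 10.2 and 11.2, close to the lowest score of the list, 8.88. The 8 h list began at a higher score, 10.9, above the scores of the first pair, and the part of this in their absence at 8 h was not tested. With a score of at least 11 required, 2 of the 4 RelA regions of 3 h were left.

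In the Zfp36 window RelA was called in 2 of 7 libraries, at 7 sites after 3 h of LPS and at 2 of them after 8 h. The site at 29170815 to 29171646 on chromosome 7 had a RelA tag density of 25.6 at 3 h and 25.8 at 8 h. At 29165923 to 29166670 the values were 21.6 and 26.6. Both sites were thus about as high at 8 h as at 3 h on the deposited scale. The other 5 sites were called at 3 h alone, with 22.0 at 29158042 to 29158625, 15.0 at 29160703 to 29161017, 14.8 at 29163269 to 29163651, 16.1 at 29166944 to 29167324 and 17.2 at 29167908 to 29168543. The first of these had a slightly higher highest tag density at 3 h than the site at 29165923 that was also listed at 8 h. By the authors' score at 3 h the order differed: the sites listed at 8 h had 18.3 and 17.5, above the 15.8 of that site and the 9.60 to 12.0 of the other 4. Their mean tag densities, 9.44 and 9.52, were also the highest of the 7, next to 9.26 at 29158042. The 8 h list began at a score of 10.9, above the 3 h scores of 9.60 at 29160703 and 9.75 at 29163269. The part of this in the absence of these sites at 8 h was not tested. With a score of at least 11 required, 5 of the 7 RelA regions of 3 h were left.

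The Zfp36 window was dense in RelA regions rather than high in them. Of the 3275 stretches of 90 kb that held any RelA region of 3 h outside input, 0.489% held 7 or more, and the median was 1. For the 4 regions of the Dusp1 window the like share was 6.04% of 3079 stretches of 120 kb. The windows were chosen with results known, and the stretches were cut at fixed positions that can split a group of regions. These shares are therefore descriptions. None of the Zfp36 regions reached a tag density of 50, a level that 251 regions of the 3 h list outside input had.

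**Figure D2:**
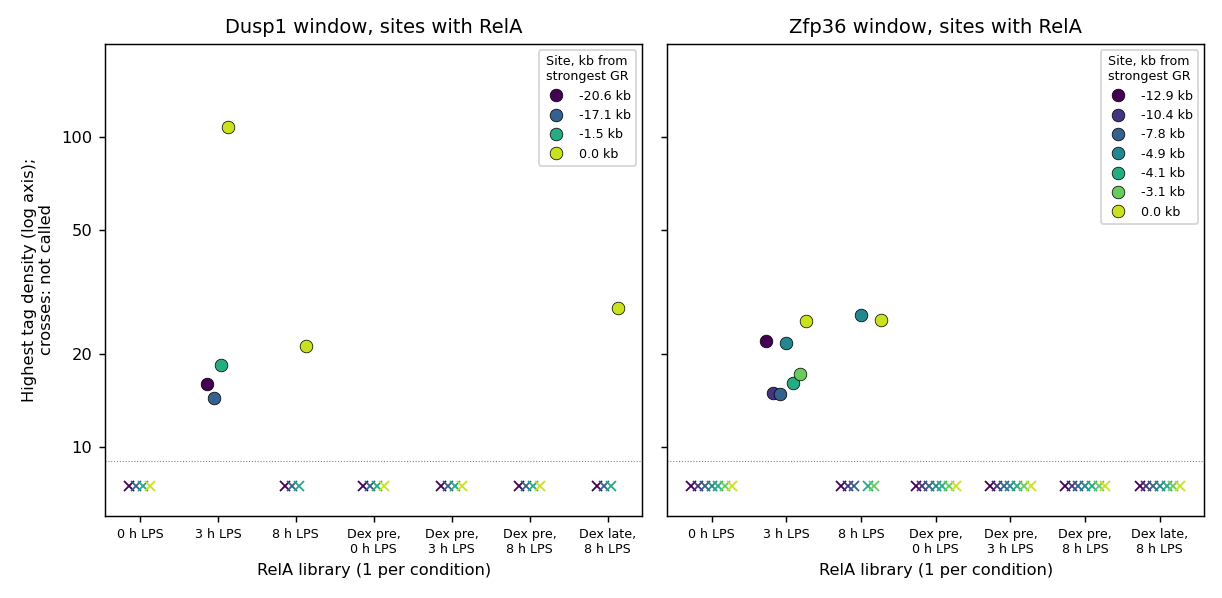
Highest tag density of RelA (log axis) at the 4 Dusp1 sites and 7 Zfp36 sites with RelA, in each of the 7 libraries, coloured by distance of the site from the strongest GR region. Crosses under the dotted line stand for sites not called and have no value. Only the 3 h, 8 h and late Dex libraries hold points, and 1 Dusp1 site at 108 stands apart.

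Counts of regions called again at 8 h were near the background. It was 1 of 4 RelA regions of 3 h in the Dusp1 window and 2 of 7 in the Zfp36 window, against 31.3% of all 4972 RelA regions of 3 h outside input. Among those of tag density 50 or more, the class of the strongest Dusp1 region, the share was 93.6%. With late Dex, 1 of 4 and 0 of 7 were called, against 4.24% of all and 49.4% of those of tag density 50 or more. What set the strongest Dusp1 site apart was how far its value dropped.

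Over the 1556 RelA regions listed at both times, the median ratio of tag density at 8 h to 3 h was 1.03, and 3.34% were at least 2-fold lower at 8 h. The Dusp1 region was 5.10-fold lower, a log2 ratio of -2.35, which lies 2.39 below the median on the log2 scale (-2.39). Only 1 of the 1556 had a lower ratio, and those 2 were the ones at least 4-fold lower, 0.129% of the regions. A ratio exists only for regions listed at 8 h, and the tenth percentile of tag density in that list was 16.8. A region near the 3 h list's median of 18.5 could therefore enter the 1556 mainly without such a fall. The part of this in the rank of the Dusp1 region was not tested. Among the 235 with a tag density of 50 or more at 3 h, the median log2 ratio was -0.27, and 1 was lower than Dusp1. By mean tag density, 37.8 at 3 h and 8.92 at 8 h, 2 of the 1556 were lower. A single scale factor between the libraries would move all ratios alike and so would not alter this order. The scaling is unknown, and differences that depend on density could alter the order and were not tested.

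The 11 regions outside input that were denser than the Dusp1 one at 3 h give a like comparison. All 11 were called at 8 h, with tag densities there from 24.1 to 160 and a median of 95.2. The lowest of them was the other region of at least 4-fold fall, at chromosome 19, 22022084 to 22023086, which went from 133 at 3 h to 24.1 at 8 h. It too met a dense GR region of LPS and Dex, with a tag density of 385, although GR with Dex alone was only 15.4 there. The rest of the 11 also met GR regions of LPS and Dex, with tag densities from 47.7 to 180. Those with 180 and 145 had ratios of RelA at 8 h to 3 h of 0.618 and 1.20. The Dusp1 window was chosen partly on its own GR value, and a link between GR density and these ratios was not tested. Regions no longer called at 8 h have no ratio. Among those of tag density 50 or more at 3 h there were 16, of which the highest had 77.7.

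At Zfp36 no such drop was seen. The log2 ratio of 8 h to 3 h was 0.01 at 29170815 and 0.30 at 29165923, and 47.6% and 71.5% of the 1556 regions had a lower ratio. These sites therefore lay in the middle of the distribution.

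Late Dex was set against no Dex at 8 h of LPS. At the strongest Dusp1 site RelA was higher with late Dex on the deposited scale, 28.2 against 21.2, a 1.33-fold difference, whereas the median region called in both libraries had 0.435 of its value without Dex. Of the 202 such regions, 58.9% were at least 2-fold lower with late Dex and 0% at least 2-fold higher. The Dusp1 log2 ratio of 0.41 stood 1.61 above the median, and 4 of the 202 regions, the Dusp1 one included, had a ratio as high. Only regions listed with late Dex have a ratio, and the tenth percentile of tag density in that list was 15.7. A region as weak as 21.2 at 8 h could therefore enter the 202 mainly with a high ratio. The part of this in the rank of the Dusp1 region was not tested. By mean tag density, 12.1 against 8.92, it was 2 of the 202. This comparison and that of 8 h with 3 h share the 8 h library, so a low value in that library alone would move the ratios in these directions at once. Against 3 h of LPS, which does not involve the 8 h library without Dex, the late Dex value was 0.260 of the earlier one. The median over 211 regions was 0.448, and 6.16% lay lower than Dusp1.

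The late Dex list held no region in the Zfp36 window. Neither of the 2 RelA regions called there at 8 h without Dex was called with late Dex, against a background of 10.8% of all 1878 regions at 8 h that were called again. With so low a background, 0 of 2 shows no departure. The tag densities of 26.6 and 25.8 were near the median of the 8 h list.

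**Figure D3:**
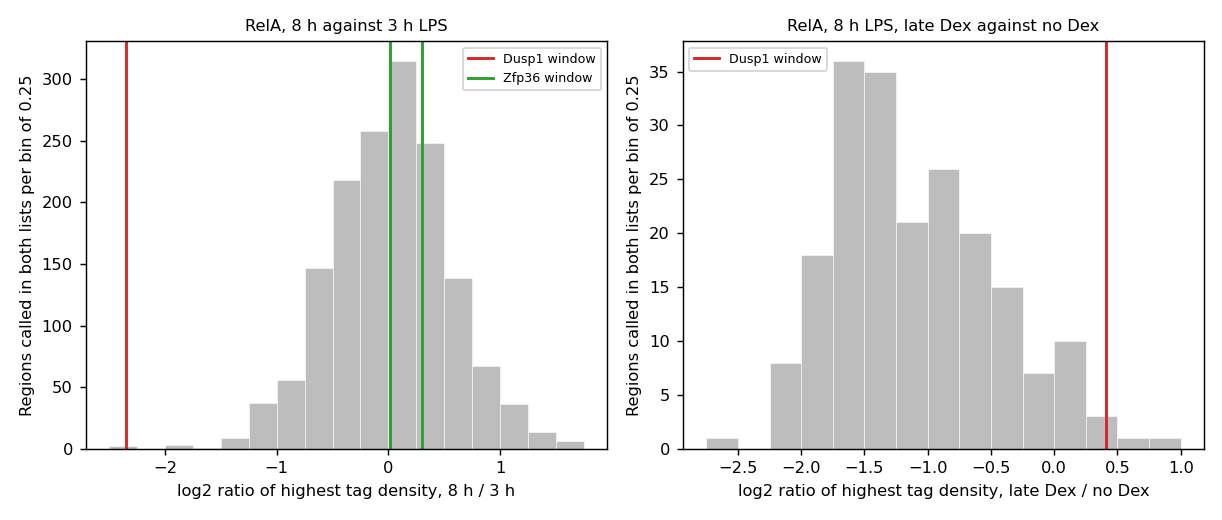
Distribution of the log2 ratio of highest tag density over RelA regions called in both lists, for 8 h against 3 h of LPS (left, 1556 regions) and late Dex against no Dex at 8 h (right, 202 regions). Bars count regions in bins of 0.25, and lines mark the members. The Dusp1 line lies at -2.35 on the left and at 0.41 on the right, and the Zfp36 lines lie at 0.01 and 0.30.

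No RelA region was called in either window after Dex pretreatment, with 0, 3 or 8 h of LPS. The background was sparse as well where a share was taken. Of the RelA regions of 3 h, 0.241% met a region of the pretreated 3 h library, as did 4.38% of those with a tag density of 50 or more. Of the 8 h regions, 0.16% met a region of the pretreated 8 h library. No share was taken for the pretreated library of 0 h. The lists of the pretreated libraries with 0, 3 and 8 h of LPS held 75, 84 and 78 regions. The strongest Dusp1 site was thus among the large majority of strong sites not listed there. In resting cells without Dex, 0.744% of the 3 h regions were already called, and neither window held one.

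GR was called at 5 sites of the Dusp1 window with Dex and at 10 with LPS and Dex. All 5 of the first met a region of the second. At the strongest site the tag density was 346 with Dex and 746 with LPS added, the highest value of each list. The runner-up had 344 in the Dex list and 487 in the list of LPS and Dex. By the authors' score the site ranked 16 with Dex and 6 with both agents. The region was 26671859 to 26672996 with Dex and 26671834 to 26673046 with both agents, so the shorter lay wholly within the longer.

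The group of sites 20.6 to 25.9 kb before it held the next highest GR values. At 26649231 to 26650562 the tag density was 35.7 with Dex and 139 with LPS and Dex. At 26646178 to 26646914 it was 33.8 and 97.4. These sites had no RelA region in any library. The third GR site of this group, 26651488 to 26652243, had 41.1 with LPS and Dex, no call with Dex, and RelA at 3 h.

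Close to the strongest site lay 4 further GR sites, within 3.57 kb of it. At 26670596 to 26671365, where RelA was also called at 3 h, the GR values were 18.8 with Dex and 88.2 with both agents. At 26669476 to 26669978 the values were 14.3 and 24.8. The sites at 26668508 to 26669238 and 26674790 to 26675352 were called with both agents alone, with 51.1 and 28.9. The scores of the Dex regions at 26670596 and 26669476 were 9.16 and 9.53, near the lowest of that list (9.0), and 3 of the 5 Dex regions kept a score of at least 11.

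The outer sites, 37.9 kb before and 36.1 kb after the strongest one, were listed with LPS and Dex alone. They had tag densities of 24.3 at 26634163 to 26634870 and 80.8 at 26708180 to 26708862. Beyond the window end, the next GR region of LPS and Dex began 22.5 kb on and had 35.1, while the last one inside lay 11.1 kb from the edge.

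At Zfp36 GR was called at 2 sites with Dex and at 3 with LPS and Dex, all of which were RelA sites of 3 h. At 29170815 to 29171646 the tag density of GR was 45.4 with Dex and 86.9 with LPS and Dex. At 29167703 to 29168634 it was 19.7 and 28.9, and at 29165923 to 29166670 GR was called with both agents alone, at 21.7. The highest GR value of the window ranked 562 of 51639 with LPS and Dex and 307 of 55196 with Dex, so it stood high in both lists without being near the top.

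Sites without a Dex region were usual among GR regions of LPS and Dex. In the Dusp1 window 5 of 10 had a counterpart with Dex and in the Zfp36 window 2 of 3, against 37.4% of all and 21.7% of the 16366 with a tag density of at least 10, a bound that every member passed. Conversely, all 7 Dex regions of the windows met a region of LPS and Dex, against 35% of all Dex regions and 89.4% of the 3733 of that density. The number of GR regions at Dusp1 was high for its width with LPS and Dex, where 2.33% of 16085 stretches of 120 kb with any GR region held 10 or more, but not with Dex alone, where 28% of 15126 held 5 or more. Counting only regions with a tag density of at least 10, the shares were 0.808% of 6804 stretches and 1.96% of 2500. The Dusp1 window was chosen partly on a value of the LPS and Dex list itself. The stretches were cut at fixed positions that can split a group of regions. The Dusp1 shares are therefore descriptions and no independent evidence of density. The Zfp36 window held 3 GR regions under both agents and 2 under Dex alone, and the shares of 90 kb stretches with as many were 41.5% and 66.7% over all GR regions, and 28.2% and 22.7% at that density.

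All 7 GR regions called in both lists were higher with LPS and Dex on the deposited scale. Of the 7, 3, all at Dusp1, had a ratio above the median of shared regions with a tag density of at least 10 in both lists. The ratio ran from 1.46 at 29167703 in the Zfp36 window to 4.69 at 26670596 in the Dusp1 window, and was 2.15 at the strongest Dusp1 site and 1.92 at the strongest Zfp36 site. It was at least 2-fold at 4 of the 5 Dusp1 sites and at neither Zfp36 site, against 57% of the 3182 regions with a tag density of at least 10 in both lists and 13.7% of all shared regions. The median ratio of the 3182 regions was 2.24, and the strongest site of each locus lay close to it, with 47.4% and 40.3% of regions lower. This set was not matched on density, and the strongest Dusp1 site had the highest tag density of each list. The site beside the strongest Dusp1 one, at 26670596, was higher than 92.4% of the 3182 and the site at 26649231 than 85.9%. Over all 19179 shared regions, most of them of low density, the median ratio was 1.12 and the strongest Dusp1 and Zfp36 sites were higher than 87.4% and 84.7%. Whether a site counts as typical or as raised therefore depends on which regions it is set against.

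**Figure D4:**
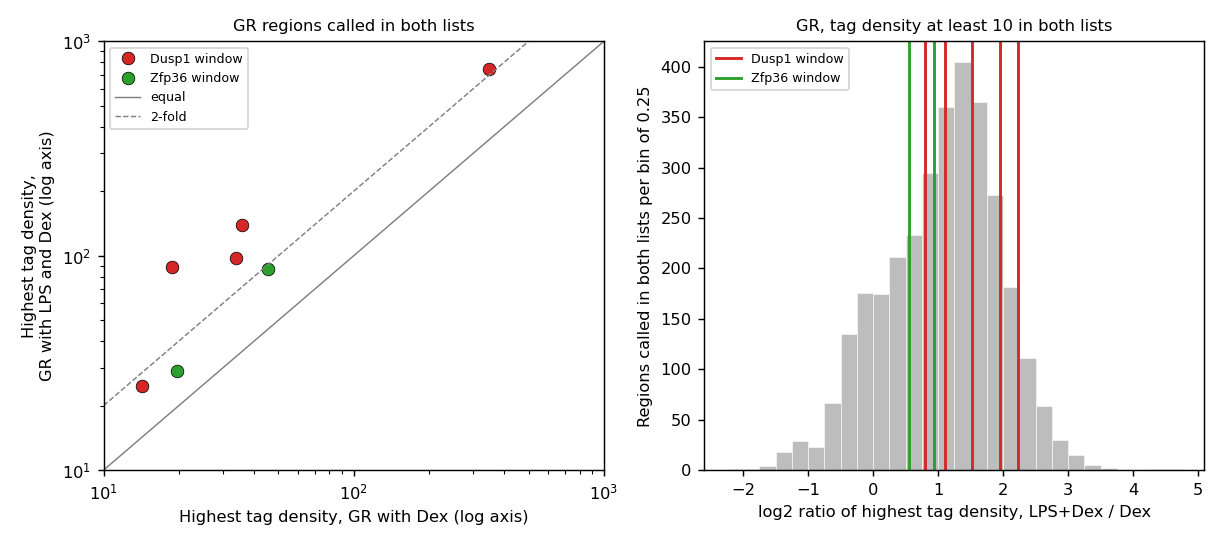
Left, highest tag density of GR with LPS and Dex against GR with Dex (log axes) for the 7 members called in both lists, with lines of equal and 2-fold values. Right, the log2 ratio over 3182 GR regions with a tag density of at least 10 in both lists (bars, bins of 0.25) and the members (lines). All points lie above the line of equality, with Zfp36 between 0.55 and 0.94 on the right and Dusp1 between 0.79 and 2.23.

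RelA and GR regions met at 6 of the 18 sites. Of the RelA regions of 3 h, 3 of 4 at Dusp1 and 3 of 7 at Zfp36 met a GR region of LPS and Dex, against 62% of all, and 2 of 4 and 2 of 7 met one of Dex, against 17.5%. These lists come from cells treated differently, so they do not show both proteins in the same cells. From the side of GR, 3 of the 10 regions of LPS and Dex at Dusp1 and all 3 at Zfp36 met RelA of 3 h, against 18.7% of those with a tag density of at least 10. All 3 RelA regions listed at 8 h in the windows met GR of LPS and Dex, against 85.8% of all, and 2 of 3 met GR of Dex, against 18.4%.

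At the shared sites the centres of the RelA region of 3 h and the GR region of LPS and Dex lay 14.5 to 157 bp apart. The distance was 109 bp at the strongest Dusp1 site, where 95.8% of the RelA region was covered, and 48.0 bp at the strongest Zfp36 site, where all of it was. Over all 3129 overlapping pairs the median was 54.0 bp, with quartiles of 25 and 106 bp. At the strongest Dusp1 site the shorter RelA region of 8 h lay 28.5 bp from the GR centre and that of late Dex 81.5 bp. Regions of unequal width set part of these distances, and the files give no position of the top within a region.

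Beyond the end of the Zfp36 window, 17.6 kb on, lay a site whose pattern differed from those inside, at 29227561 to 29228431 for RelA at 8 h. RelA had a tag density of 17.02 at 0 h, 65.9 at 3 h, 69.3 at 8 h without Dex and 37.7 when Dex came late. GR was called with LPS and Dex, at 32.2, and not with Dex. It was higher than any RelA region of the window at 3 h and 8 h, and it was called at 0 h and with late Dex, as none inside was. Its nearest gene was not determined.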

How the data were processed

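The ChIP-seq lists of 10 libraries were used, 1 per condition. The submitters' processing notes name CASAVA and the build mm9. Caller, threshold and scaling were not given in the sources used here. The deposited values per region are the highest and mean tag density (signal values, per the file headers), a z-score (the authors' score) and the authors' p-value. Library depth is unknown, so no value carries a counting error.

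Windows, members and lists were chosen with earlier results of these data known. Regions met when they shared at least 1 bp, and shares were taken over regions outside input. All sites were named with positions. For regions called in 2 lists, the log2 ratio of tag density was set against that of all such regions, a region meeting several being paired with the densest. Stretches were cut at fixed multiples of the window's width. The overlap and ratio steps were tested on simulated data. Python 3.11.15, pandas 2.3.3 and NumPy 2.4.6 were used. Alternatives were a stricter density or score, other overlap rules, merging within 500 bp, input regions kept and mean density. Sequences came from RefSeq (GRCm38.p6).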

Additional observations from a re-analysis of the deposited data

How the results depend on the processing

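Of 86 alternative values for 21 results, 79 kept their direction and stayed within 1.5-fold of the reported value. Many of these could not differ, so the share is no measure of robustness. No member overlapped input and the lowest tag density was 14.3, so keeping input regions or requiring a density of 10 left every count as it was. Lists without a region in a window could not gain any by a stricter filter. Requiring a score of at least 11 moved 3 counts in the Dusp1 window: RelA regions of 3 h from 4 to 2, GR regions with Dex from 5 to 3, and GR regions of LPS and Dex that met one of Dex from 5 to 3. Within the 1.5-fold bound, it also took the RelA regions of 3 h at Zfp36 from 7 to 5. The RelA regions of 3 h at Dusp1 that met GR of LPS and Dex went from 3 to 2. The log2 ratio of GR (LPS and Dex over Dex), less the median of shared regions, was 0.95 at Dusp1 and 0.78 at Zfp36 over all shared regions, and -0.055 and -0.22 over those of tag density 10 or more. The median itself differs between these sets, by construction of the alternative. For RelA at the strongest Zfp36 site (8 h over 3 h), -0.03 became 0.065 by mean density and 0.26 at the region of highest score, which is another region. The fall of RelA at Dusp1 ranged from -2.39 to -2.19 and the late Dex difference, added after the data had been seen, from 1.51 to 1.61. No paired analysis was possible because each condition had 1 library. Depth of the libraries is unknown, so a region not listed is not shown to be unbound.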

Other observations

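The strongest Dusp1 site was 1 of 9 RelA regions of both LPS times that met a GR region with a tag density of 200 or more (LPS and Dex). This bound was set after the values had been seen, and the groups carry no test. The Dusp1 window was itself chosen on this GR value. The 9 include the Dusp1 region, with a log2 ratio of 8 h to 3 h of -2.35, and the chromosome 19 region of steepest fall, with -2.46. The groups are therefore a description, and a link between GR density and these ratios was not tested. The median log2 ratio of RelA at 8 h to 3 h was -1.25 over these 9, with a range from -2.46 to 0.22, against 0.05 for the 433 regions with GR of 50 to 200, 0.07 for the 939 with GR below 50, and -0.06 for the 175 without a GR region. For late Dex over no Dex at 8 h the medians were 0.15 over 7 regions, from -0.75 to 0.92, against -1.15 over 116, -1.36 over 75 and -1.21 over 4. The 7 again include the Dusp1 region, with 0.41. Only regions listed with late Dex have this ratio, and the part of that in the medians was not tested. Both comparisons use the 8 h library without Dex, so they are not separate evidence.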
